A study of Rattus norvegicus with 12 samples.

Results

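The 31 genes described here are those by which T lymphocytes and natural killer (NK) cells are commonly recognised in tissue RNA. They were taken by name from a list: the 4 CD3 and zeta chains of the T cell receptor complex, the coreceptors Cd4, Cd8a and Cd8b, 4 proximal signalling genes, 7 surface and costimulatory receptors, 3 regulatory and checkpoint genes, 3 genes of the type 1 programme and 7 cytotoxic and NK genes. This list and the other gene lists below were chosen with earlier results of these data known. All 31 members were found among the 40154 genes of the deposited table. Of them, 28 were among the 17687 genes with enough counts to be tested, and Gzmb, Ifng and Pdcd1 were not. RNA came from whole urinary bladder of female Wistar rats, an outbred laboratory strain, aged 10 to 12 weeks per the labels. There were 4 groups of 3 libraries: normal uninjured rats as controls, and rats killed 7, 14 or 28 days after complete transection at thoracic segment 10 that spared the dura. The series design gives the cut as the ninth to the tenth segment and names 20 rats, more than the 12 libraries. No sham-operated group is among the samples, so the cut and the surgery around it cannot be told apart. Each library is labelled as a replicate, and nothing says from how many animals a library was made, so p-values measure the spread between these libraries.

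T cells recognise peptides held by MHC molecules through a receptor whose variable chains signal only through the CD3 chains and zeta, and the kinases Lck and Zap70 and the adaptor Lat carry that signal into the cell. CD8 marks most cytotoxic T cells and CD4 marks helper and regulatory T cells, the latter defined by the transcription factor Foxp3. NK cells kill without an antigen receptor, through perforin and granzymes that cytotoxic T cells also use. A bladder cut off from the brain by a cord lesion above the sacral segments retains urine, and its wall is known to thicken, scar and become inflamed.

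The libraries held 26275314 to 30747936 counts, and every pair of libraries within a group differed by more than sampling noise. Levels are given as CPM, reads of a gene scaled to a common library size with TMM factors, and, where genes are compared with each other, as the deposited TPM (transcript abundance divided by gene length and scaled to a common total). Smooth muscle and urothelial genes were abundant in all libraries: a summed 23797 to 24381 TPM for 12 such markers in controls and 14097 to 21472 TPM at day 28. The pan-leukocyte gene Ptprc (CD45) was at 21.6 ± 3.37 CPM (SD, n = 3) in controls and 124 ± 31 CPM (SD, n = 3) at day 28. In tissue RNA, more cells of a type and more of a gene's RNA per cell cannot be told apart, which holds for every change below.

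At day 28, 25 of the 28 tested members were higher than in control bladder and none was lower, by an edgeR quasi-likelihood test with Benjamini-Hochberg adjustment over all genes (called at an adjusted p below 0.05). Changes are given as log2 fold changes ± their standard error (SE). Of all genes tested, 11% were called higher in that comparison. The 4 largest log2 fold changes were 6.69 for Cd3e, 6.66 for Trat1, 6.02 for Ctla4 and 5.72 for Foxp3. Outside day 28, Trat1 had at most 10 reads in a library and Cd3d at most 8. Ctla4 had 17 and 18 in day-7 replicates 1 and 2 and at most 8 in any other library outside day 28. These genes had enough counts to be tested only through the day-28 libraries, so their calls there are not independent of that choice. Without a filter on counts, 25 members were also called. The members' median was 2.97, beside 0.00 for all genes tested. In 26 of the 28, every day-28 library lay above every control library, which held for 20.9% of all genes tested. The 3 members that were not called were Cd3g, Cd6 and the granzyme gene Gzma; Cd6 passed with DESeq2 and in a fit of those 2 groups alone, at adjusted p 0.0177 to 0.0427. Against the same 3 controls, 5 members were called higher at day 7, where 15.6% of all genes were, and 1 at day 14, where 1.45% were. The day-7 share is near the background. The members' median log2 fold change was 1.01 at day 7 and 1.26 at day 14, beside -0.01 and 0.00 for all genes tested. Of the 28, 24 changed by more than 0 at day 7 and 25 at day 14. In the edgeR test, 11 members had an unadjusted p below 0.05 at day 7, of which 10 were higher. At day 14 it was 14, all higher. The 3 comparisons use the same control libraries.

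**Figure D1:**
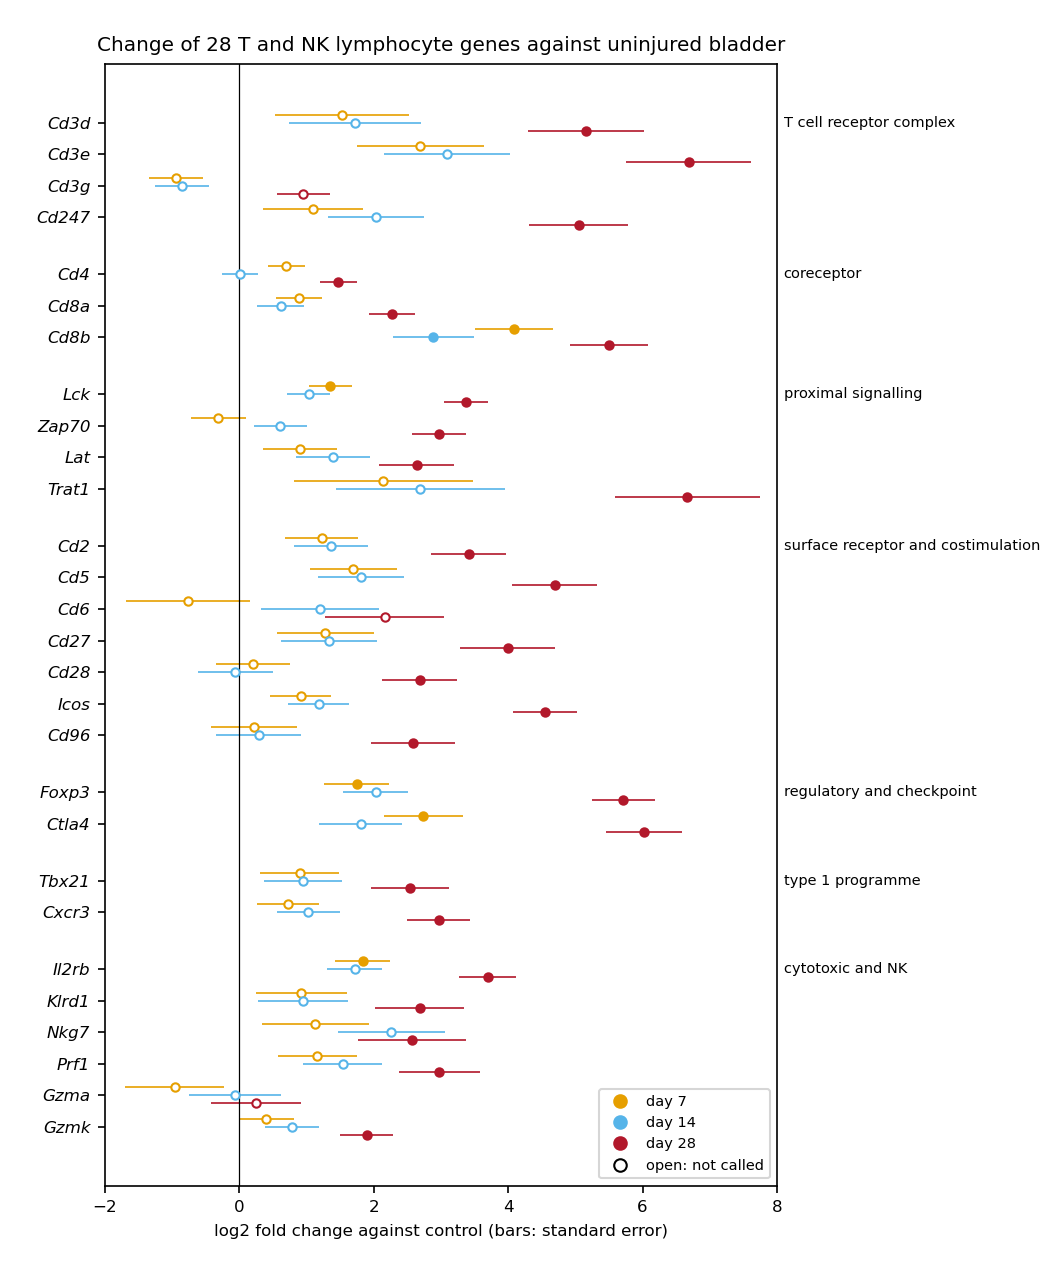
Change of the 28 tested members against control on the log2 scale (horizontal axis), with standard error bars, by role. Filled points passed the test: 5 at day 7 (orange), 1 at day 14 (blue) and 25 at day 28 (red), all to the right of 0.

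The receptor complex itself was close to undetected in controls except for 1 chain. Cd3e, the epsilon chain, lies at chr8:49297604-49309370 (rn6), next to Cd3d and Cd3g. It was measured at 0.0348, 0.328 and 0.0357 CPM in the controls, 0.99, 0.834 and 0.796 at day 7, 1.02, 0.172 and 2.27 at day 14, and 8.04, 10.8 and 23.1 CPM at day 28. Its day-28 libraries all lay above the other 9. The day-7 libraries lay above the controls, which held 1, 9 and 1 reads, and day-14 replicate 2 fell within the control range. The day-28 change was 6.69 ± 0.93 (adjusted p = 0.000841). Cd3d, the delta chain, was at 0.104, 0 and 0.0357 CPM in the controls, 0.293, 0.0695 and 0.0724 at day 7, 0.255, 0.0344 and 0.212 at day 14, and 1.13, 1.9 and 2.47 CPM at day 28. It had 4 reads over all controls and 168 at day 28, a ratio of 38.8 with a 95% exact counting interval of 14.9 to 144, and the fitted change was 5.15 ± 0.86 (adjusted p = 0.00227). Cd247, the zeta chain that carries most of the complex's signalling motifs, was at 0.0348, 0.437 and 0.322 CPM in the controls, 1.03, 0.348 and 0.326 at day 7, 1.46, 0.688 and 1.13 at day 14, and 4.57, 7.13 and 14.8 CPM at day 28. It rose by 5.05 ± 0.73 (adjusted p = 0.00104), and only the day-28 libraries stood clear of all others. Each of these chains was lowest at day 28 in replicate 1 and highest in replicate 3.

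Cd3g, the gamma chain, had another pattern. It was at 4.07, 4.34 and 3 CPM in the controls, 2.02, 1.11 and 2.79 at day 7, 1.67, 2.65 and 1.98 at day 14, and 5, 5.13 and 11.9 CPM at day 28. Its level was lower in all 6 libraries of days 7 and 14 than in any control, and higher in all 3 of day 28. Neither direction passed the test against control: Cd3g changed by -0.95 ± 0.40 (adjusted p = 0.106) on day 7 and by -0.85 ± 0.40 (adjusted p = 0.299) on day 14. On day 28 it changed by 0.95 ± 0.39 (adjusted p = 0.121), or 0.41 without day-28 replicate 3. Day 28 against day 7 was called, at 1.89 ± 0.41 (adjusted p = 0.00892), and so was day 28 against day 14, at 1.80 ± 0.41 (adjusted p = 0.0316). On the length-corrected scale Cd3g was at 9.86 ± 1.92 TPM (SD, n = 3) in controls, where Cd3e was at 0.149 ± 0.189, Cd3d at 0.145 ± 0.166 and Cd247 at 0.307 ± 0.240 TPM. At day 28 the 4 chains were nearer each other, at 19.3 ± 10.2 TPM for Cd3g, 15.9 ± 9.02 for Cd3e, 10.5 ± 6.23 for Cd247 and 5.74 ± 2.07 for Cd3d. Control levels of Cd3g thus had no counterpart in the other chains of the complex.

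The constant regions of the receptor's variable chains were added after the data were seen. The deposited table types 4 of the tested genes as constant regions, 3 of them described as beta or gamma chains of the receptor and 1 listed by RefSeq as Trdcl, and all 4 rose at day 28, by log2 fold changes of 2.41 to 5.12, with none called at day 7 or 14. Their summed level was 2.51 to 3.05 TPM in controls, 3.16 to 6.64 on day 7, 3.80 to 6.02 on day 14 and 15.1 to 61.9 TPM on day 28. The largest change, 5.12 ± 0.70 (adjusted p = 0.000728), was that of LOC100362843, the gene that RefSeq lists as Trdcl. Beta constant regions are near-identical copies, so how counts divide between LOC102554731 and LOC108348060 is uncertain.

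**Figure D2:**
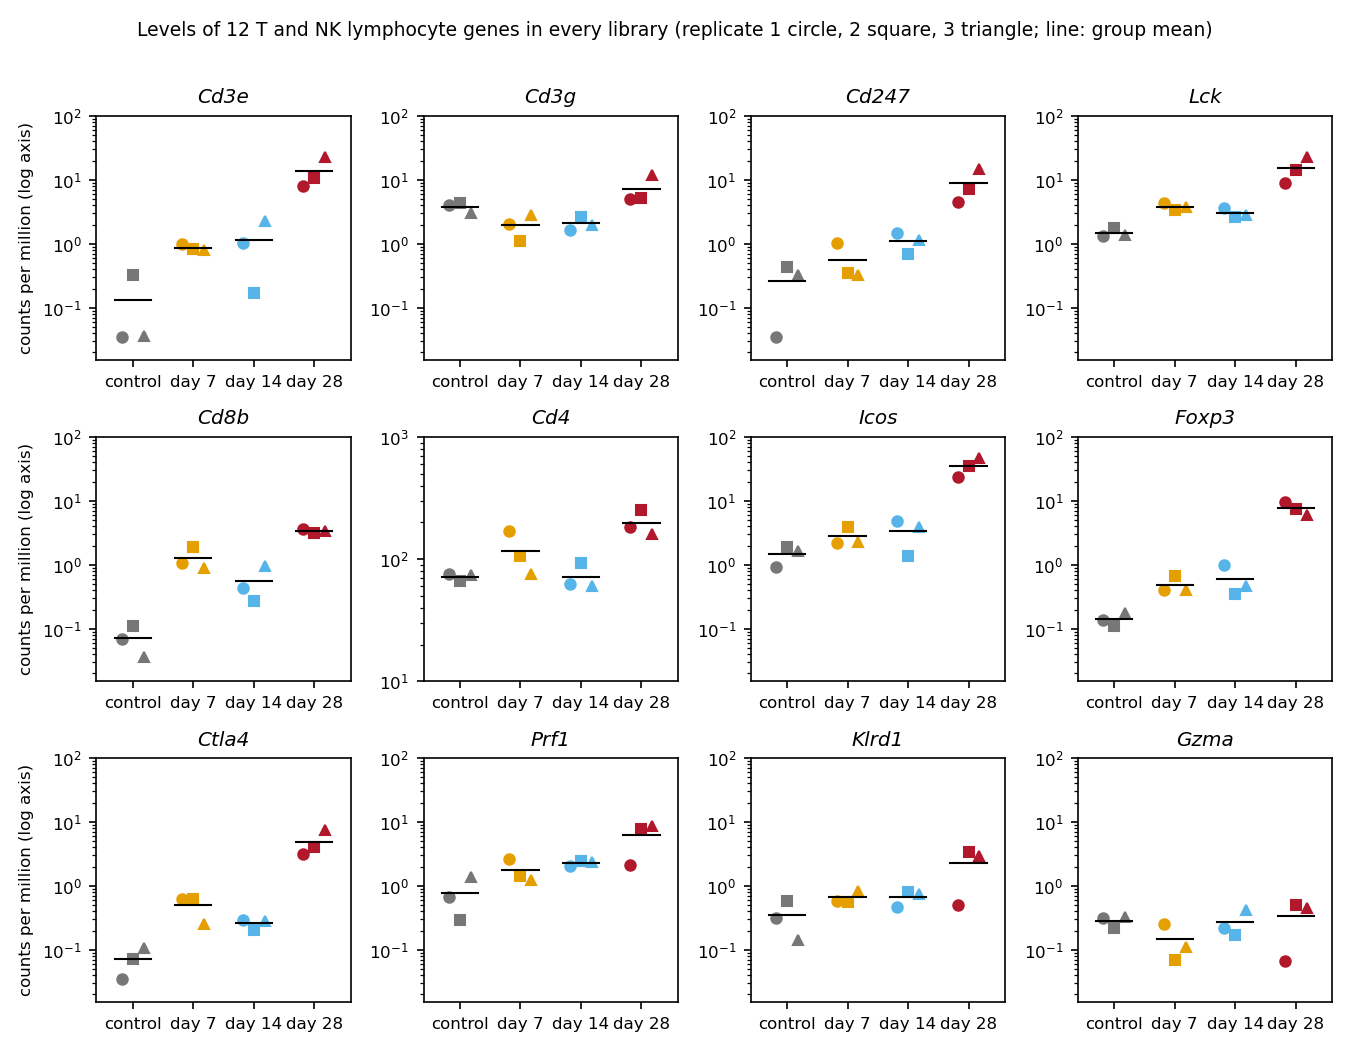
CPM (log axis, Cd4 on its own range) of 12 members in each library by group; symbols mark replicate 1, 2 and 3 and lines the group means. Day-28 libraries stand above the controls for every gene shown except Klrd1 and Gzma, where replicate 1 (0.5 and 0.0667 CPM) lies within or below the control range.

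Both CD8 chains and Cd4 rose at day 28. Cd8b, the beta chain found on classical cytotoxic T cells, was at 0.0696, 0.109 and 0.0357 CPM in the controls, 1.06, 1.88 and 0.905 at day 7, 0.437, 0.275 and 0.956 at day 14, and 3.7, 3.16 and 3.4 CPM at day 28. All 9 libraries from injured rats lay above all 3 controls, and the day-28 values differed little among themselves. It is the only member called at all 3 days, by 4.09 ± 0.58 (adjusted p = 0.000609) on day 7, 2.89 ± 0.60 (adjusted p = 0.0353) on day 14 and 5.50 ± 0.58 (adjusted p = 0.000161) on day 28. The controls held 6 reads in all; the ratio of counts was 18.1 (8.05 to 50.4) at day 7 and 48.0 (21.8 to 132) at day 28, with 95% exact intervals for counting error alone. Cd8b shares 68 bases with LOC108350716 on the other strand (89 counts against 473 over all libraries), which itself changed by 7.22 at day 28; since use of strand is not stated, the reads of the pair cannot be told apart over those bases. The day-14 call was lost without any 1 of the control libraries, without day-14 replicate 3 and with the replicate number as a block (adjusted p 0.0561 to 0.138).

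Cd8a, the alpha chain, which some NK and dendritic cells also carry in the rat, started higher, at 2.23, 3.43 and 3.25 CPM in the controls, 5.65, 7.37 and 3.48 at day 7, 3.86, 3.03 and 6.73 at day 14, and 11.2, 14.8 and 17 CPM at day 28. It rose 2.27 ± 0.35 (adjusted p = 0.00144) by day 28 and did not pass at day 7, where it changed by 0.89 ± 0.34 (adjusted p = 0.0768). Cd4 was at 75.9, 65.9 and 74 CPM in the controls, 169, 106 and 75.2 at day 7, 62.7, 93.1 and 60.6 at day 14, and 185, 251 and 162 CPM at day 28. Per length it was the most abundant member in both groups, at 33.6 ± 2.66 TPM (SD, n = 3) in controls and 94.9 ± 22.9 TPM at day 28. It was called at day 28 only, with a change of 1.47 ± 0.27 (adjusted p = 0.00407), and its day-7 and day-14 libraries overlapped the controls. Rat macrophages also carry CD4, and Cd4 RNA stood at 64.0 to 71.3% of that of the macrophage receptor gene Csf1r in controls (TPM), 42.4 to 65.4% on day 7, 53.0 to 73.0% on day 14 and 77.2 to 108% on day 28. Without Cd4, the summed level of the other 30 members was 25.8 to 31.6 TPM in controls, 30.7 to 52.1 on day 7, 35.5 to 77.2 on day 14 and 122 to 298 TPM on day 28.

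All 4 proximal signalling genes rose at day 28. Lck, the kinase that phosphorylates the CD3 and zeta chains, was at 1.32, 1.75 and 1.39 CPM in the controls, 4.29, 3.37 and 3.76 at day 7, 3.64, 2.65 and 2.87 at day 14, and 8.81, 14.3 and 23.1 CPM at day 28. Every library from injured rats lay above every control, and day 28 above all else. Lck was called at day 7, at 1.35 ± 0.32 (adjusted p = 0.00952), and at day 28, at 3.37 ± 0.33 (adjusted p = 0.000131); the day-14 change of 1.03 ± 0.32 (adjusted p = 0.114) was not. Zap70, the kinase that binds the phosphorylated chains, was at 1.11, 1.6 and 1.18 CPM in the controls, 1.58, 0.904 and 0.652 at day 7, 2.04, 2.17 and 1.74 at day 14, and 5.3, 10.3 and 15 CPM at day 28. It showed no rise at day 7 (-0.31 ± 0.41 (adjusted p = 0.61)) and was higher by 2.97 ± 0.41 (adjusted p = 0.000755) at day 28. Lat, the membrane adaptor that Zap70 phosphorylates, was at 0.661, 1.38 and 1.32 CPM in the controls, 2.79, 2.16 and 1.34 at day 7, 5.5, 1.2 and 2.16 at day 14, and 4.8, 5.79 and 10.4 CPM at day 28. Day-14 replicate 1 stood apart from the other day-14 libraries and reached day-28 levels, and the day-28 change was 2.64 ± 0.56 (adjusted p = 0.00756). Trat1, an adaptor that associates with the receptor complex, was at 0, 0.0729 and 0 CPM in the controls, 0.22, 0.0348 and 0.109 at day 7, 0.182, 0 and 0.354 at day 14, and 2, 2.56 and 3.98 CPM at day 28. It had 2 reads over all controls against 261 at day 28, a count ratio of 120 (33.0 to 1000), with a fitted change of 6.66 ± 1.08 (adjusted p = 0.00189).

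Since these genes changed together, their promoters were searched for short motifs, as a description. RefSeq (GRCr8) gave the 250 bases upstream of a start for 26 of the 31 members, 27 windows in all since Lck has 2 starts; Cd4, Cd8b, Klrd1, Cd6 and Il2rb had none in the table. Read on both strands, the RUNX letters TGTGGT occurred in 11 of the 27 windows (40.7%, beside 14.5% of 33469 windows of all genes) and the ETS letters AGGAAG in 15 (55.6% beside 29.5%). The TCF/LEF letters TTTGAA occurred in 29.6% beside 16.2%, the T-box letters GGTGTGA in 7.41% beside 3.22%, the NFAT letters GGAAAA in 11.1% beside 21.6% and the GATA letters AGATAA in 3.70% beside 10.3%. Matches of different motifs overlapped in 1 member window. Both RUNX and ETS letters were in 4 windows and neither was in 5. Below, capitals mark RUNX and ETS letters on either strand. Shown are the leading CD3 gene, the upstream start of Lck, Lat and Prf1 as windows with both, Icos with ETS alone, and Foxp3 as a window with neither; all read 5′ to 3′ along the gene's strand.
Cd3e, chr8:54211771-54212020, minus strand: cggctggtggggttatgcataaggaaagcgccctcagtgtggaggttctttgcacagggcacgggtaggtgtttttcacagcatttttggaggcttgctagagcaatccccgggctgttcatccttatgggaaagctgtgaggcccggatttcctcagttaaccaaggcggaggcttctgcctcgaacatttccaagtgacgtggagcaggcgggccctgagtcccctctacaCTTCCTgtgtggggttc
Lck, chr5:147201268-147201517, minus strand: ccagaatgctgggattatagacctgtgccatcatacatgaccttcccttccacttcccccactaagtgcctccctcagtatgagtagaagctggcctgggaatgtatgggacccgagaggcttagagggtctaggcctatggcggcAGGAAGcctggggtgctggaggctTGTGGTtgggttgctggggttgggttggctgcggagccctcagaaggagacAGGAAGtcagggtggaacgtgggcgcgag
Lat, chr1:190372137-190372386, minus strand: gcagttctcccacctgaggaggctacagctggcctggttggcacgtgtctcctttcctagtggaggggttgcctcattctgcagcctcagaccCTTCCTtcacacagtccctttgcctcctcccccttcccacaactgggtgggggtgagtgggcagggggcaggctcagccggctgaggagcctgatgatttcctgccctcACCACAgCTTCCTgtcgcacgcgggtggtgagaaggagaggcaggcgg
Prf1, chr20:29788790-29789039, plus strand: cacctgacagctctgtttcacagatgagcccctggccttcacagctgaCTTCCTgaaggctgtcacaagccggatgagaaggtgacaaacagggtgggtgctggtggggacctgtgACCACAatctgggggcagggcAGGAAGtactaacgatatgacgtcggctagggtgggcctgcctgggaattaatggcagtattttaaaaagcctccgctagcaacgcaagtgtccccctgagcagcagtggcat
Icos, chr9:69877549-69877798, plus strand: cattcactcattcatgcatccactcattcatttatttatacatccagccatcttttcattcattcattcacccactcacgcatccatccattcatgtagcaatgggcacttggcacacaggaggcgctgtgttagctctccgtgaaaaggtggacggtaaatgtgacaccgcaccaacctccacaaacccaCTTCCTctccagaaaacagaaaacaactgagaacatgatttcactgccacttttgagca
Foxp3, chrX:17595701-17595950, minus strand: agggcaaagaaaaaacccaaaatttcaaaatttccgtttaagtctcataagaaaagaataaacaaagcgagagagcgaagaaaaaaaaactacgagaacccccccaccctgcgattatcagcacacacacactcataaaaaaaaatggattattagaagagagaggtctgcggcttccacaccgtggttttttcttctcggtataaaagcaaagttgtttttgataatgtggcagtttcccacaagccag

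Among tested members whose window held neither set of letters, the day-28 change was 5.72 for Foxp3, 3.99 for Cd27, 2.54 for Tbx21 and 2.27 for Cd8a. Among those with both in a window it was 3.37 for Lck, 2.98 for Prf1, 2.64 for Lat and 2.56 for Nkg7. No test was made of these shares, since the members were chosen for what they encode and with earlier results of these data known. A match of these letters is not a binding site.

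Among the surface and costimulatory receptors, 6 of 7 rose at day 28 and none was called at day 7 or 14. Icos, a costimulator induced on activated T cells and kept by many regulatory and follicular helper T cells, was at 0.94, 1.89 and 1.64 CPM in the controls, 2.16, 3.93 and 2.32 at day 7, 4.88, 1.38 and 3.93 at day 14, and 23.6, 35 and 46.2 CPM at day 28. Day 28 stood clear of every other library, with a change of 4.55 ± 0.48 (adjusted p = 0.000161). Cd28, the costimulator required to prime naive T cells, was at 1.15, 0.947 and 1.54 CPM in the controls, 2.42, 0.348 and 1.41 at day 7, 1.56, 0.584 and 1.35 at day 14, and 7.04, 6.49 and 9.86 CPM at day 28. Its libraries at days 7 and 14 spread around the controls, and the day-28 change was 2.68 ± 0.55 (adjusted p = 0.00688). Icos, Cd28 and Ctla4 are neighbours on chr9 (rn6 67546408 to 67786808), and of the 3 Cd28 had the smallest log2 fold change at day 28. Cd27, a costimulator of the TNF receptor family, was at 0.104, 0.146 and 0.393 CPM in the controls, 0.513, 0.521 and 0.543 at day 7, 0.546, 0.206 and 0.885 at day 14, and 1.2, 3.33 and 5.88 CPM at day 28. It rose by 3.99 ± 0.70 (adjusted p = 0.00302), with day-28 replicate 1 the lowest of its group.

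Cd2, an adhesion receptor of T and NK cells, was at 0.383, 0.729 and 0.893 CPM in the controls, 1.5, 1.67 and 1.52 at day 7, 2.04, 0.653 and 2.48 at day 14, and 3.2, 7.23 and 11 CPM at day 28. All day-7 and day-28 libraries lay above the controls, and the day-28 change was 3.41 ± 0.56 (adjusted p = 0.00198). Cd5, a receptor that dampens antigen receptor signalling and is also found on some B cells, was at 0.244, 0.182 and 0.143 CPM in the controls, 1.21, 0.382 and 0.29 at day 7, 0.946, 0.378 and 0.708 at day 14, and 3.57, 3.56 and 7.93 CPM at day 28. The day-28 change was 4.69 ± 0.64 (adjusted p = 0.000706); Cd5 overlaps the more abundant Vps37c on the other strand (7724 counts against 586 over all libraries), which itself changed by 0.13. Cd6, a related receptor next to Cd5 on chr1, was at 1.11, 1.38 and 0.572 CPM in the controls, 0.917, 0.452 and 0.434 at day 7, 6.15, 0.516 and 0.39 at day 14, and 2.47, 4.26 and 7.03 CPM at day 28. Its highest injured libraries were day-28 replicate 3 and day-14 replicate 1, the other 2 day-14 libraries lay below all controls, and the day-28 change of 2.16 ± 0.88 (adjusted p = 0.116) was not called. Cd96, an adhesion receptor of T and NK cells, was at 0.592, 0.364 and 0.679 CPM in the controls, 0.88, 0.73 and 0.29 at day 7, 1.06, 0.241 and 0.708 at day 14, and 1.2, 4.26 and 4.43 CPM at day 28. It rose by 2.59 ± 0.63 (adjusted p = 0.015) and lost the call without control replicate 2 (adjusted p = 0.067). Over 29198 bases Cd96 shares its locus with another gene model on the same strand (55 counts against 457 over all libraries), so reads may be split between them.

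**Figure D3:**
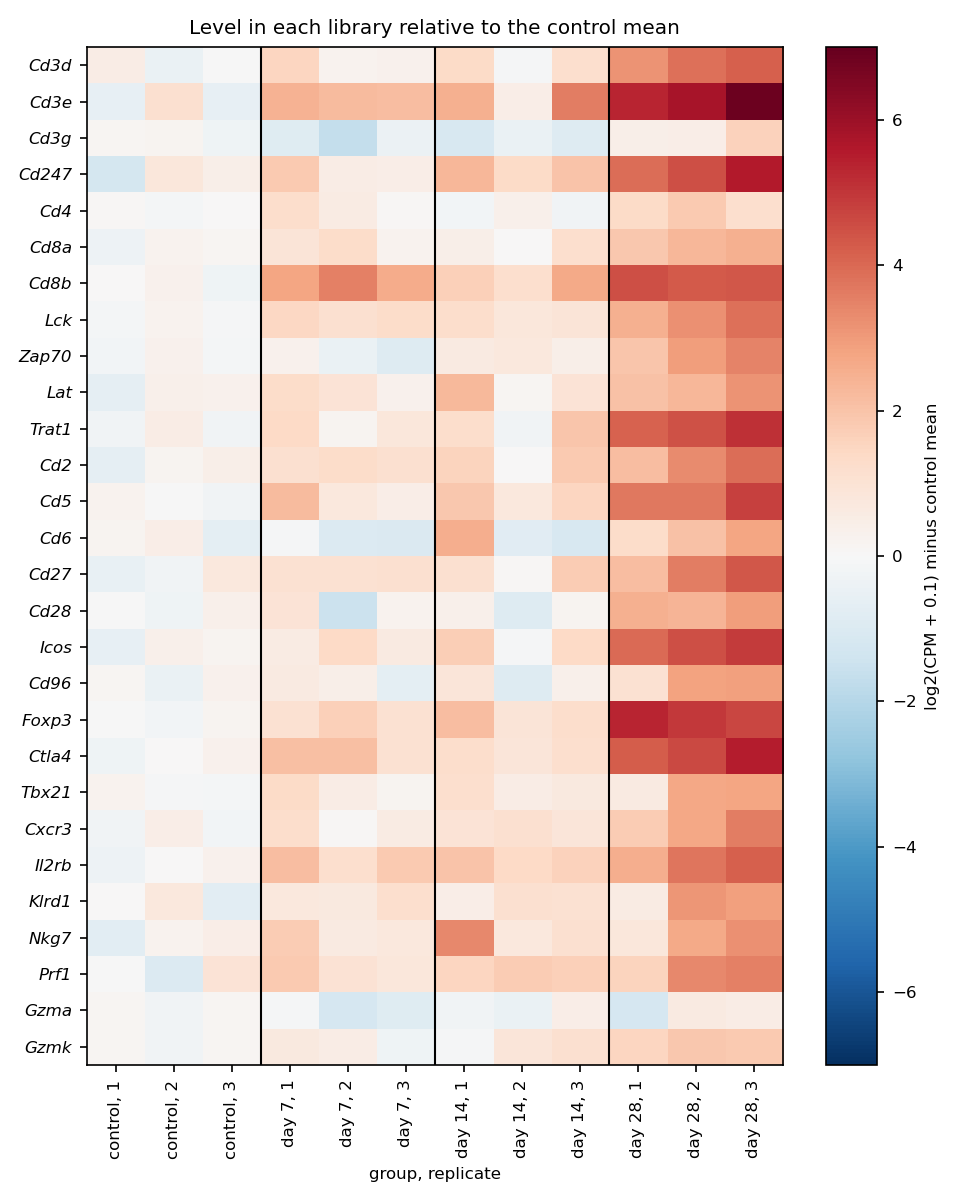
Level of the 28 tested members (rows) in each of the 12 libraries (columns), as log2(CPM + 0.1) minus the control mean; red is higher. Day 28 is red for nearly all rows. Replicate 1 is paler than 2 and 3 for most rows, among them Klrd1, Tbx21, Prf1, Nkg7 and Cd96, and darker for Foxp3.

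The regulatory and checkpoint genes that could be tested were among the largest changes. Foxp3, which defines regulatory T cells, was at 0.139, 0.109 and 0.179 CPM in the controls, 0.403, 0.661 and 0.398 at day 7, 0.983, 0.344 and 0.46 at day 14, and 9.74, 7.46 and 5.94 CPM at day 28. All injured libraries lay above all controls, and the 3 of day 28 lay above all others, while days 7 and 14 overlapped. It was called at day 7, at 1.75 ± 0.48 (adjusted p = 0.0212), and at day 28, at 5.72 ± 0.47 (adjusted p = 6.74e-05), and stood just outside the threshold at day 14, at 2.03 ± 0.48 (adjusted p = 0.0504). Leaving out control replicate 1, control replicate 2 or day-7 replicate 2 ended the day-7 call, at an adjusted p of 0.0651 to 0.0850. Foxp3 overlaps Ccdc22 on the other strand, which had 6017 counts against 804 and changed by 0.34. The sources used here do not say whether the counting used strand. Foxp3 had 185 to 292 reads per day-28 library and 3 to 5 per control.

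Ctla4, an inhibitory receptor that regulatory T cells carry constantly and other T cells gain on activation, was at 0.0348, 0.0729 and 0.107 CPM in the controls, 0.623, 0.626 and 0.253 at day 7, 0.291, 0.206 and 0.283 at day 14, and 3.1, 4.06 and 7.58 CPM at day 28. Controls held 6 reads in all against 451 at day 28, a count ratio of 69.4 (31.6 to 190). It was called at day 7, at 2.74 ± 0.59 (adjusted p = 0.00588), and at day 28, at 6.02 ± 0.56 (adjusted p = 0.000115). Pdcd1, the PD-1 checkpoint receptor, had 7 reads in day-28 replicate 2 and none in the other 11 libraries. Against a floor of 3 counts over the control group, that is 2.15-fold higher at day 28, from 1 library and with no allowance for counting error.

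Of the type 1 programme, Tbx21 and Cxcr3 were tested and both rose at day 28. Tbx21, encoding T-bet, the factor that directs interferon gamma production in T and NK cells, was at 0.487, 0.364 and 0.357 CPM in the controls, 1.17, 0.626 and 0.471 at day 7, 1.02, 0.619 and 0.708 at day 14, and 0.667, 3.13 and 3.31 CPM at day 28. The day-28 change was 2.54 ± 0.58 (adjusted p = 0.0111); replicate 1 was within the range of days 7 and 14. Cxcr3, the receptor for interferon-induced chemokines, was at 0.696, 1.2 and 0.715 CPM in the controls, 2.13, 0.904 and 1.3 at day 7, 1.71, 1.99 and 1.63 at day 14, and 3.2, 6.13 and 11.1 CPM at day 28. It rose by 2.96 ± 0.47 (adjusted p = 0.00174), with all day-28 libraries above all others. Ifng, the cytokine itself, had no reads in controls. It had 4 on day 7, 6 on day 14 and 19 on day 28, of which 17 were in replicate 3. Against a floor of 3 counts over the control group, the day-28 sum was 5.85-fold higher, with no allowance for counting error. The chemokines Cxcl9, Cxcl10 and Cxcl11, which it induces, are given with the other lists further on.

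Of the 6 tested cytotoxic and NK genes, 5 rose at day 28. Il2rb, the receptor chain through which interleukins 2 and 15 act on NK, memory and regulatory T cells, was at 1.08, 1.46 and 1.79 CPM in the controls, 6.78, 3.37 and 5.32 at day 7, 5.86, 3.82 and 4.57 at day 14, and 8.81, 20.2 and 27 CPM at day 28. Every injured library lay above every control. It was called at day 7, at 1.84 ± 0.41 (adjusted p = 0.00708), and at day 28, at 3.69 ± 0.42 (adjusted p = 0.000261), and missed at day 14, at 1.72 ± 0.41 (adjusted p = 0.0509). Prf1, the pore-forming protein of killer cells, was at 0.661, 0.292 and 1.39 CPM in the controls, 2.6, 1.43 and 1.23 at day 7, 2.04, 2.48 and 2.34 at day 14, and 2.13, 7.83 and 8.6 CPM at day 28. Day-28 replicate 1 lay within the day-14 range, and the group's change was 2.98 ± 0.60 (adjusted p = 0.00598). Nkg7, a granule membrane protein, was at 0.453, 0.984 and 1.18 CPM in the controls, 3.01, 1.32 and 1.41 at day 7, 9.28, 1.44 and 1.88 at day 14, and 1.47, 5.69 and 8.35 CPM at day 28. The highest library of all was day-14 replicate 1, and the day-28 change of 2.56 ± 0.80 (adjusted p = 0.046) lost its call with the replicate block, without any 1 of the controls and without day-28 replicate 2 or 3 (adjusted p 0.0604 to 0.146).

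Klrd1, encoding CD94, a receptor chain of NK cells and some CD8 T cells, was at 0.313, 0.583 and 0.143 CPM in the controls, 0.587, 0.556 and 0.833 at day 7, 0.473, 0.791 and 0.744 at day 14, and 0.5, 3.33 and 2.89 CPM at day 28. Only day-28 replicates 2 and 3 exceeded the control range clearly; the change of 2.68 ± 0.66 (adjusted p = 0.0165) lost its call without control replicate 1, control replicate 3 or day-28 replicate 2 (adjusted p 0.061 to 0.0691). Gzmk, a granzyme of memory CD8 T cells, was at 0.696, 0.51 and 0.715 CPM in the controls, 1.1, 0.939 and 0.507 at day 7, 0.582, 1.2 and 1.52 at day 14, and 2, 2.63 and 2.54 CPM at day 28. It rose by 1.89 ± 0.40 (adjusted p = 0.00772), the smallest called change of this role. Gzma, its neighbour on chr2 and a major granzyme of NK cells, was at 0.313, 0.219 and 0.322 CPM in the controls, 0.257, 0.0695 and 0.109 at day 7, 0.218, 0.172 and 0.425 at day 14, and 0.0667, 0.499 and 0.449 CPM at day 28. It showed no call at any day, with a day-28 change of 0.25 ± 0.67 (adjusted p = 0.837). Gzmb, the granzyme of activated killer cells, had 3 reads over the controls, 6 over the day 7 libraries, 30 over those of day 14 and 14 over those of day 28. The count ratio to control was 9.92 (3.09 to 50.8) at day 14, with 19 of the 30 reads in replicate 1, and 4.31 (1.20 to 23.4) at day 28.

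Between days 7 and 14, no member was called in either direction by edgeR: 3 had an unadjusted p below 0.05, of which 1 was higher at day 14, and DESeq2 called 0. Of all genes, 7.59% were called higher and 12.0% lower. From day 14 to day 28, 19 members were called higher, where 3.13% of all genes were, and from day 7 to day 28, 23 were, where 7.89% were. These 2 comparisons share the day-28 libraries. Foxp3 rose by 3.69 ± 0.40 (adjusted p = 0.00168) and Ctla4 by 4.22 ± 0.48 (adjusted p = 0.0019) after day 14, and these were the only 2 of the 19 calls that held under every alternative tried. The count fell to 2 when only the 2 groups were fitted, to 10 and 8 without day-14 replicate 1 or 2, and to 7 without day-28 replicate 2 or 3. From day 7 to day 28 it fell to 14 without day-28 replicate 3. The tested members not called after day 14 were Klrd1, Prf1, Nkg7, Gzma, Gzmk, Tbx21, Cd96, Lat and Cd6. Their changes ran from 0.30 ± 0.73 for Nkg7 to 2.30 ± 0.61 for Cd96, while Cd4 was called at 1.47 ± 0.27. In the edgeR test, 25 of the 28 members had an unadjusted p below 0.05 here, all higher at day 28. Whether the roles differ in this comparison was not tested.

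The mean of Cd8b was 0.0716 CPM in controls, 1.28 on day 7, 0.556 on day 14 and 3.42 on day 28, and the difference of day 14 from day 7, -1.20 ± 0.45 (adjusted p = 0.0862), did not pass. Ctla4 and Cd4 were also lower in the mean at day 14 than at day 7, at -0.94 ± 0.49 (adjusted p = 0.207) and -0.70 ± 0.27 (adjusted p = 0.0939), which did not pass either. From day 7 to day 28 Cd8b changed by 1.41 ± 0.43 (adjusted p = 0.04) and Cd8a by 1.38 ± 0.34 (adjusted p = 0.0157), and the value for Cd4, 0.77 ± 0.27 (adjusted p = 0.0692), did not pass, while Cd3e changed by 3.99 ± 0.76 (adjusted p = 0.00507) and Foxp3 by 3.97 ± 0.41 (adjusted p = 0.000256). Whether the changes of these genes differ from each other was not tested.

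Ratios within a library set the members against each other without group scaling. Cd3e stood at 0.410 to 4.56% of Ptprc in controls (TPM), 3.19 to 4.66% on day 7, 1.17 to 7.70% on day 14 and 23.0 to 45.7% on day 28. This ratio was higher in every day-28 library than in any other library. The same held for Lck, a gene with more control reads, but over a smaller range. Lck stood at 12.8 to 19.4% of Ptprc in controls, 10.3 to 16.1% on day 7, 7.77 to 14.4% on day 14 and 23.0 to 36.4% on day 28. Of the 28 tested members, 22 had a larger day-28 log2 fold change than Ptprc, whose own was 2.52. Some of the 22 were level with it, such as Tbx21 at 2.54 ± 0.58 and Nkg7 at 2.56 ± 0.80. No member was tested against Ptprc. Foxp3 stood at 56.8, 32.4 and 12.0% of Cd3e in day-28 replicates 1, 2 and 3, at 19.1 to 37.1% at day 7 and at 9.52 to 93.7% at day 14. In the controls, with 1, 9 and 1 reads of Cd3e, the ratio has no useful precision. Ctla4 to Cd3e was steadier at day 28, at 31.9 to 37.6%. Klrd1 stood at 7.71, 38.2 and 15.5% of Cd3e in the 3 day-28 libraries, and Prf1 at 24.9, 67.9 and 34.8%.

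The 3 day-28 libraries differed among themselves. Replicate 1 had the lowest CPM of every tested member except Cd4, Cd5, Cd8b, Cd28 and Foxp3, and the highest Foxp3 and Cd8b. Replicate 2 had the highest Cd4, Gzma, Gzmk and Klrd1. Replicate 3 had the highest level of all other tested members, and of Ifng. Immunoglobulin heavy chain constant regions, 7 genes added after the data were seen, summed to 1.70, 11.9 and 1390 TPM in the same 3 libraries and to 0.402 to 0.661 TPM in controls. With any 1 control or day-28 library left out, replicate 3 included, 23 to 25 members were still called at day 28.

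**Figure D4:**
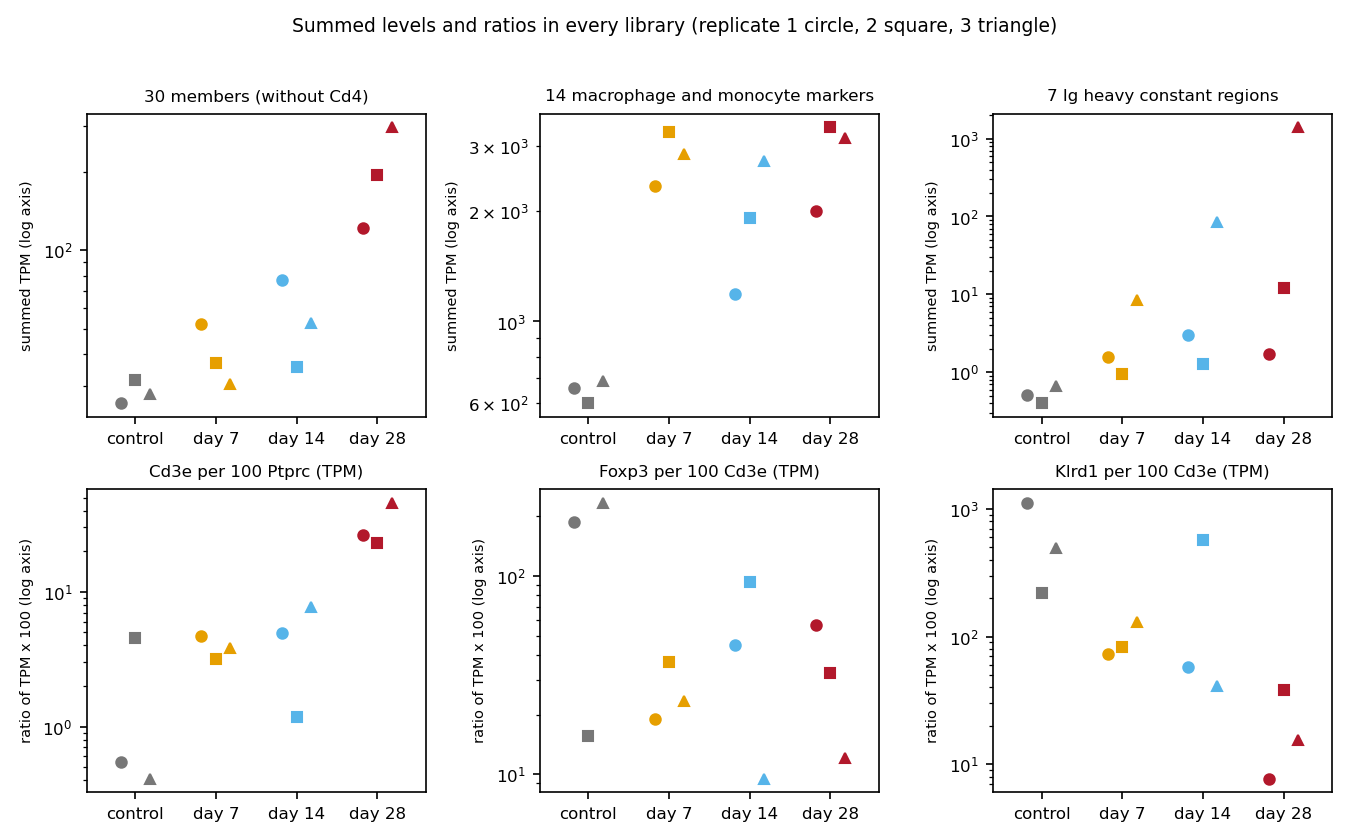
Summed TPM of 3 gene lists and TPM ratios of 3 gene pairs in each library (log axes), by group and replicate. The 30 members without Cd4 reach 122 to 298 TPM at day 28 against 25.8 to 31.6 in controls, whereas macrophage markers are as high at day 7 as at day 28.

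Other T cell genes, listed apart from the members, moved the same way at day 28 in most cases. Of 25 further receptor signalling and adaptor genes, 16 were called higher and 2 lower, with a median log2 fold change of 1.42. By the smallest p these were Vav1, an exchange factor downstream of the receptor, at 2.88 ± 0.30 (adjusted p = 0.000159), Ptpn6, the phosphatase SHP-1, at 1.21 ± 0.15 (adjusted p = 0.000409), and Prkcq, protein kinase C theta, which fell at -1.26 ± 0.15 (adjusted p = 0.000382). Prkcq was at 36.3, 30.9 and 33.9 CPM in the controls, 21.4, 18.6 and 21 at day 7, 34, 25.9 and 23.6 at day 14, and 11.8, 14.8 and 15.5 CPM at day 28. Every day-28 library lay below every control, and the gene is known in skeletal muscle as well as in T cells. The other gene that fell was Rasgrp2 (-0.75 ± 0.15 (adjusted p = 0.00638)).

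Of 19 T cell transcription factors and homing receptors, 14 rose and none fell at day 28, with a median of 2.58. Itgae, the CD103 integrin of tissue-resident T cells and some dendritic cells, changed by 2.21 ± 0.23 (adjusted p = 0.000146), Itgal, the LFA-1 alpha chain, by 2.58 ± 0.27 (adjusted p = 0.000148), and Ccr7, the receptor for entry into lymph nodes, by 4.74 ± 0.49 (adjusted p = 0.000148). Ccr7 was at 0.139, 0.255 and 0.214 CPM in the controls, 0.623, 2.29 and 1.59 at day 7, 1.02, 0.756 and 1.27 at day 14, and 4.67, 6.63 and 5.23 CPM at day 28. It was also called at days 7 and 14, and its groups ran from controls to day 28 without a control library reaching any injured one. Of 21 tested activation and checkpoint genes, 17 rose and none fell, with a median of 2.93. Il2rg, the shared chain of several interleukin receptors, changed by 2.88 ± 0.26 (adjusted p = 9.51e-05), Il21r by 3.86 ± 0.37 (adjusted p = 0.000131) and Cd80, a ligand of Cd28 and Ctla4 on antigen-presenting cells, by 3.71 ± 0.46 (adjusted p = 0.000405).

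Some genes of these lists, picked out after their values were seen, had no more than 1 read over all controls. Il17a, the cytokine of type 17 T cells, had 0 reads in controls and day 14, 1 at day 7, and 11, 111 and 55 in the day-28 libraries. Cd40lg, the helper ligand for B cells, had 0 reads in controls and 14, 39 and 31 at day 28. Tigit, a checkpoint receptor of T and NK cells, had 0 in controls and 22, 9 and 24 at day 28. Ccr8, a receptor frequent on regulatory T cells in tissue, had 1 read over all controls and 28, 25 and 17 at day 28.

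Of 22 tested NK and cytotoxic genes outside the list, 18 rose and none fell at day 28, with a median of 2.84. Those named here had the smallest p at any day against control, not the largest change. They were Klrc3, an NKG2 receptor gene, at 2.86 ± 0.32 (adjusted p = 0.000241), Ccl5, a chemokine of killer cells, at 3.71 ± 0.54 (adjusted p = 0.00105), and Hcst, the adaptor DAP10, at 3.13 ± 0.58 (adjusted p = 0.00373). The KLR genes are a family of close copies, among which reads may be split uncertainly. Of 16 chemokines and cytokines that act on T and NK cells, 9 rose and 1 fell. Ccl3 changed by 4.12 ± 0.78 (adjusted p = 0.00429), and Cxcl12, a homing chemokine of stroma, fell at day 14 by -1.35 ± 0.22 (adjusted p = 0.0166) and at day 28 by -0.95 ± 0.22 (adjusted p = 0.012). Of the Cxcr3 ligands, named after their values were seen, Cxcl9 was at 0.174, 0.474 and 0.786 CPM in the controls, 5.87, 2.36 and 2.57 at day 7, 0.873, 1.38 and 1.06 at day 14, and 0.834, 5.86 and 18.6 CPM at day 28. It was highest in day-28 replicate 3, and its day-28 change was 4.13 ± 0.93 (adjusted p = 0.0108). Cxcl10 was at 2.12, 2 and 2.07 CPM in the controls, 10.4, 3.3 and 5.18 at day 7, 5.2, 40.7 and 27.8 at day 14, and 21.8, 17.6 and 80.2 CPM at day 28. It rose by 3.57 ± 0.79 (adjusted p = 0.0427) on day 14 and by 4.27 ± 0.81 (adjusted p = 0.00448) on day 28. Cxcl11 had 1 read over all controls and was at 0, 0.0364 and 0 CPM in the controls, 0.147, 0.139 and 0.0362 at day 7, 0.0728, 0.447 and 0.177 at day 14, and 0.5, 0.832 and 8.99 CPM at day 28. It was called higher at day 28 (adjusted p = 0.00538), with all 3 libraries above every other.

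**Figure D5:**
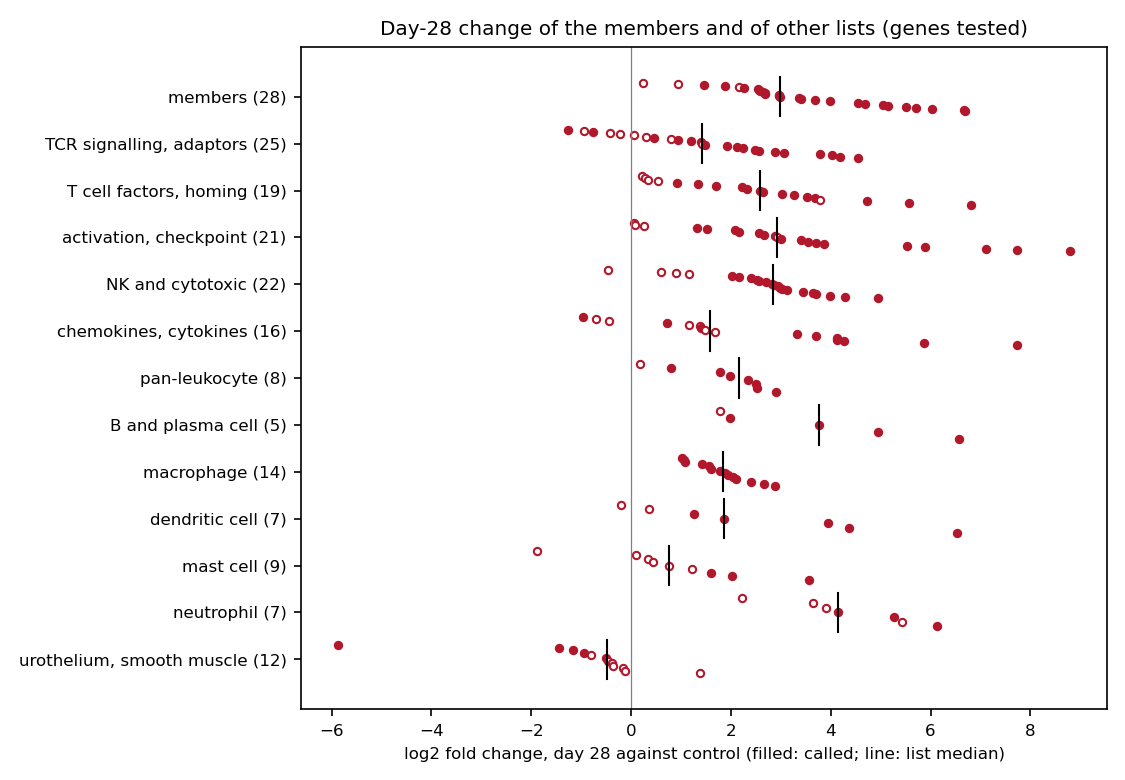
Day-28 log2 fold change of every tested gene in the members' list and 12 other lists; filled points passed the test and black lines are list medians, 2.97 for the members. Urothelial and smooth muscle genes centre below 0, and most immune lists centre above 1.

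Genes of other immune cells moved as well. All 14 macrophage and monocyte markers rose at day 28 with a median of 1.84, and all 14 had also been called at day 7, at a median of 1.80. Their sum was 599 to 689 TPM in controls and 2344 to 3285 TPM on day 7, then 1191 to 2744 TPM on day 14 and 2001 to 3380 TPM on day 28. Day 28 against day 7 gave 1 called macrophage gene, whereas 23 members were called there; the 2 counts were not tested against each other. Of 7 tested dendritic cell markers 5 rose, among them Xcr1 at 3.95 ± 0.40 (adjusted p = 0.000146), and Cd209a had no reads at day 28. Of 13 B and plasma cell markers, 5 could be tested and 4 rose, with Blk at 4.96 ± 0.61 (adjusted p = 0.000396) and Cd22 at 1.99 ± 0.33 (adjusted p = 0.002). Tnfrsf17 had no reads in any group but day 28, and the list summed to 6.87 to 11.7 TPM in controls and 23.8 to 126 TPM at day 28.

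The mast cell list had 5 of 9 genes called at day 7 and 3 at day 28, and neutrophil markers had 3 of 7 at both, with sums of 6.83 to 7.98 TPM in controls and 46.5 to 126 TPM at day 28. The part of these other cells in the members' changes was not tested. Cd2, Cd4, Cd5, Cd8a, Cd27, Cxcr3 and Il2rb are known in B, myeloid or NK cells too, while Cd3d, Cd3e and Trat1 are known mainly in T cells. Of the 12 urothelial and smooth muscle genes, 5 fell at day 28, all urothelial, with Upk2 at -1.17 ± 0.18 (adjusted p = 0.00161) and Krt20, of surface urothelial cells, at -5.88 ± 0.37 (adjusted p = 2.23e-05).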

How the data were processed

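Ribosomal RNA was removed from the total RNA of 12 bladder samples, which was sequenced as 50-base single-end reads, per the labels' protocols. HISAT2 2.1.0, HTSeq 0.11.2 and the rn6 build are named in the submitters' processing notes; their settings and any use of strand are not given in the sources used here. The authors deposited a table of raw counts per gene with TPM beside them, and dividing the counts by the deposited gene lengths gave the same TPM.

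The counts of all 40154 genes were fitted with edgeR 4.0.16 (TMM, filterByExpr with a minimum count of 10, quasi-likelihood test, 4 group means, R 4.3.3), with Benjamini-Hochberg adjustment over the 17687 genes tested in each comparison. All 12 libraries entered each fit and shared 1 estimate of the spread. The code was tested on simulated counts. The SE of a change was taken from its size and the test's F. Ratios of sums of few counts carry 95% exact intervals, which cover counting error only. Folds against no counts use a floor of 3 counts over the group and carry no interval. Depth was 26275314 to 30747936 counts, so 1 read is about 0.035 CPM.

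The members and the other lists were chosen with earlier results of these data known. Named from each other list of T and NK genes, chemokines or cytokines were the 3 genes with the smallest p at any day against control. Apart from Rasgrp2, named as the other gene that fell, further genes of those lists are marked as picked after their values were seen. From the remaining lists, fewer genes or none are named with a test. Il7r, Ccr2 and Tespa1 were not analysed here, and Fasl was matched by synonym. Alternatives were DESeq2 1.42.0, RLE scaling, other filters, a fold threshold, fits of 2 groups, a replicate block and leaving out each library of the 2 groups compared. The deposited noncoding RNA tables and the authors' comparisons were not used.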

Additional observations from a re-analysis of the deposited data

Results flagged for a closer look

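Each comparison between 2 days is the test of whether the changes against control differ between those days. Between day 14 and day 28 the change against control was called different for 19 members, every one of them higher at day 28. Of all genes tested, 3.13% were called higher there. Only 2 of the 19 calls, Foxp3 and Ctla4, held under every alternative, and the count fell to 2 with only the 2 groups fitted. The log2 differences were 4.22 for Ctla4, 3.97 for Trat1, 3.69 for Foxp3, 3.6 for Cd3e, 3.43 for Cd3d, 3.36 for Icos and 3.01 for Cd247. They were 2.88 for Cd5, 2.74 for Cd28, 2.66 for Cd27, 2.61 for Cd8b, 2.37 for Zap70, 2.34 for Lck and 2.05 for Cd2. The smallest were 1.98 for Il2rb, 1.94 for Cxcr3, 1.8 for Cd3g, 1.66 for Cd8a and 1.47 for Cd4.

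Between day 7 and day 28 the change against control was called different for 23 members, again all higher at day 28. Of all genes tested, 7.89% were called higher there. Of the 23 calls, 14 held under every alternative in which the gene was tested. The log2 differences were 4.52 for Trat1, 3.99 for Cd3e, 3.97 for Foxp3, 3.96 for Cd247, 3.64 for Icos, 3.63 for Cd3d, 3.29 for Zap70, 3.28 for Ctla4 and 3.0 for Cd5. They were 2.93 for Cd6, 2.71 for Cd27, 2.48 for Cd28, 2.37 for Cd96, 2.24 for Cxcr3, 2.19 for Cd2 and 2.02 for Lck. The remainder were 1.89 for Cd3g, 1.86 for Il2rb, 1.82 for Prf1, 1.74 for Lat, 1.49 for Gzmk, 1.41 for Cd8b and 1.38 for Cd8a. Cd6, Cd96, Gzmk, Prf1 and Lat are in this set and not in that of day 14, and Cd4 is in that of day 14 alone; whether the 2 differences differ was not tested. Both sets share the 3 day-28 libraries.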

How the results depend on the processing

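With control as the reference, 22 of the 25 day-28 calls held under every alternative in which the gene was tested; the filter of a mean of 1 CPM left out Cd3d, Trat1 and Klrd1 and gave 22 calls. Leaving out each control or day-28 library gave 23 to 25. At day 7, 4 of 5 calls held (4 to 7; Ctla4 was not tested with only the 2 groups fitted) and at day 14, 0 of 1 (0 to 3). The day-7 count was 9 with DESeq2. The day-14 count was 3 with RLE scaling, 3 without a filter and 7 with DESeq2. For day 14 against day 7 leaving out a library gave 0 to 1. For day 28 against day 14 the count was 2 with only those groups fitted and 7 to 23 as libraries were left out, and for day 28 against day 7 it was 14 to 23. Gzma at day 28 was 0.72 without day-28 replicate 1 and reversed, to -0.13 without day-28 replicate 2 and -0.01 without day-28 replicate 3; the cause was not tested. Replicate numbers are shared by all groups. Deviations of same-numbered libraries correlated at -0.02 to 0.15 (median 0.045), with 5 of 18 pairs above 0.1. Those of different-numbered libraries correlated at -0.21 to 0.10 (median -0.017), with 1 of 36 above 0.1. Nothing says what a replicate number marks, so the main fit did not pair the samples. Whether same-numbered libraries share something was not tested. With the replicate block the counts were 5 at day 7, 0 at day 14 and 24 at day 28, and 0, 18 and 20 for day 14 against day 7, day 28 against day 14 and day 28 against day 7. Cd3d, Cd3e, Cd8b, Trat1, Ctla4 and Foxp3 had 12 or fewer reads in all controls together, so the size of their changes is loosely bounded (6.12 to 8.46 over the alternatives for Cd3e at day 28), and Gzmb, Ifng and Pdcd1 were too shallow to test.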
